A study of Mus musculus with 4 samples.

Results

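Transcripts of 7 genes that let macrophages recognise and take up dying cells were compared between peritoneal macrophages of wild type and CD13 knockout mice. They were Mertk, Axl and Tyro3, which encode receptor tyrosine kinases of the TAM family, Gas6 and Pros1, which encode TAM ligands, and Timd4 and Mfge8, which encode other phosphatidylserine binding proteins. Every probe annotated to these symbols was taken, which gave 9 of 45281 probes on the array. A probe counted as measured when its detection p-value, the chance of so high a signal on background beads, was under 0.01 on at least 2 of 4 arrays, and 7 of the 9 met this. The members measured were 6 of 7, since the single Tyro3 probe stayed at background on all 4 arrays.

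The arrays came from wild type mice and from mice with a CD13 knock out, both of strain C57BL/6, with 2 arrays of peritoneal macrophages per genotype. CD13 is the aminopeptidase encoded by Anpep, and the series design describes the cells as resting. That text also names bone marrow derived macrophages, but all 4 arrays are labelled peritoneal. The sources used here give no account of how the knockout was made, how many mice each array pools, or their sex and age. Nothing states that arrays of a group are separate animals, so the spread behind each p-value is that between arrays and may be technical.

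Dying cells expose the lipid phosphatidylserine on their surface, and macrophages bind it either directly or through soluble bridging proteins. Gas6 and protein S, the product of Pros1, are vitamin K dependent proteins that bind both the lipid and a TAM kinase. Lactadherin, the product of Mfge8, joins the lipid to integrins. TIM-4, the product of Timd4, holds the lipid itself and is a known surface protein of resident peritoneal macrophages, where uptake also depends on Mertk.

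All 4 arrays carried macrophage transcripts. Of 10 macrophage markers listed, 8 had a probe and all 8 were measured, none passing. Without overlap, against 19.1% lower and 20.8% higher for all genes, 5 of these markers were lower and 1 higher. Among them, the surface marker Adgre1 had a log2 change of -0.51 ± 0.20, Csf1r, the receptor for macrophage colony stimulating factor, of -0.40 ± 0.17, the integrin chain gene Itgam of -1.59 ± 0.19 (limma adjusted p = 0.15), and the haemoglobin scavenger receptor gene Cd163 of 1.45 ± 0.36 (SE each, limma adjusted p = 0.365). The summed normalized intensity of the 8, on a linear scale, was 130393 and 130819 in the wild type arrays and 119304 and 114758 in the knockout arrays, which does not show these opposite differences. Of small peritoneal macrophage and monocyte markers, 7 of 9 with a probe were measured, with log2 changes from -1.20 (Fn1) to 2.07 (Itgax).

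Markers of other cell types were partly present, and none passed. The T cell receptor complex genes Cd3d, Cd3e and Cd3g were not above background. Lat, a signalling adaptor of T cells and the only T and NK marker measured of 8 with a probe, was 6.86 and 8.04 in the wild type arrays and 9.70 and 9.29 in the knockout arrays (log2 change 2.05 ± 0.41, SE, limma adjusted p = 0.27). Of neutrophil markers, 4 of 9 were measured, and Ltf, which encodes lactoferrin, had a log2 change of 2.0 ± 0.45 (SE, limma adjusted p = 0.31) with 1 of 2 wild type arrays above background. The neutrophil markers S100a8 (0.49), Csf3r (0.09) and S100a9 (-0.02) overlapped between genotypes. Of 7 B cell markers with a probe, 6 were measured, with sums of 4292 and 4983 in wild type against 2689 and 3894 in knockout. They went in opposite directions, with 4 lower and 1 higher without overlap, against 19.1% and 20.8% of all genes. Ms4a1, one of those lower, was above background on the wild type arrays alone, so the size of its change is not known. The other changes ranged from -1.02 for the receptor chain gene Cd79b to 0.93 for Cd22. Dendritic cells had 3 of 7 markers measured, mast cells and basophils 4 of 9, platelets and erythroid cells 2 of 6, mesothelial cells and fibroblasts 1 of 13 and eosinophils 0 of 5. The median signal before normalization was between 109.0 (knockout array 2) and 167.1 (wild type array 1), so signals are given together with normalized values. Anpep itself was 13.58 and 13.40 in the wild type arrays and 11.12 and 11.03 in the knockout arrays on the log2 scale. Its probe was above background on all 4 arrays, those of the knockout included. The log2 change of Anpep was -2.41 ± 0.18 (SE, 2 arrays per group, limma adjusted p = 0.0265). This change stayed between -2.50 and -2.33 when single arrays were left out. The call itself was lost in those 4 fits (limma adjusted p up to 0.171) and with no filter on dim probes (limma adjusted p = 0.0642).

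None of the 6 measured members passed at an adjusted p under 0.05 over all 10335 genes and unnamed probes tested with limma, of which 0.0968% passed (5 higher and 5 lower). With arrays scaled to a common median that split was 15 higher and 194 lower. None of the 7 measured member probes passed when each probe was tested on its own either, against 0.0941% of 14881 probes. At gene level, 1 member, Timd4, had an unadjusted limma p under 0.05, as did 965 of all genes. The Mfge8 probe annotated to NM_008594, not used at gene level, had an unadjusted limma p of 0.006 as its own row. The median log2 change of the 6 members was -0.07, and that of all genes was 0.01. Both knockout arrays lay below both wild type arrays for 3 members, Timd4, Mfge8 and Pros1, and the same held for 19.1% of all genes. No member had both knockout arrays above both wild type arrays, against 20.8% of all genes.

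**Figure D1:**
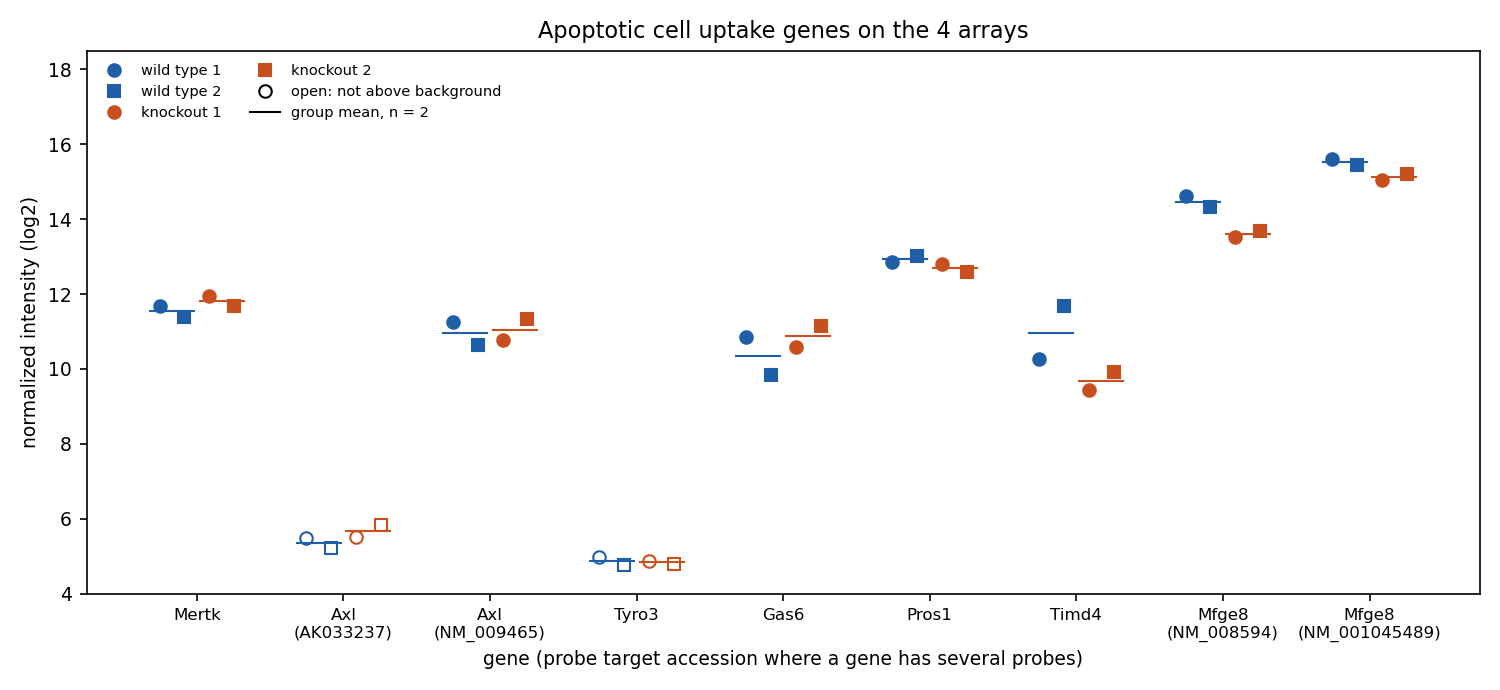
Normalized log2 intensity (vertical axis) of the 9 member probes on the 4 arrays. Blue is wild type and orange knockout, circles are replicate 1 and squares replicate 2, open symbols are not above background, and bars are group means of 2 arrays. The groups are apart for Timd4, Pros1 and both Mfge8 probes and overlap for Mertk, the measured Axl probe and Gas6. Heights of different probes cannot be compared.

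Mertk encodes the TAM kinase on which resident macrophages mainly rely for clearing dying cells. Its single probe gave signals of 4685 and 2854 in the wild type arrays and 3687 and 2354 in the knockout arrays. After normalization its log2 intensity was 11.70 and 11.40 in the wild type arrays and 11.95 and 11.68 in the knockout arrays. The groups overlapped by a small margin, since knockout array 2 lay just under wild type array 1. The log2 change was 0.27 ± 0.21 (SE), with a 95% interval of -0.24 to 0.78 (limma adjusted p = 0.762). The mean signal before normalization was lower in the knockout, 3021 against 3769, and the normalized mean was higher.

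Axl encodes the TAM kinase known to be induced by interferon and inflammatory stimuli. Of its 2 probes, the one annotated to NM_009465 was measured, with signals of 3502 and 1753 in the wild type arrays and 1660 and 1864 in the knockout arrays. Its log2 intensity was 11.26 and 10.65 in the wild type arrays and 10.76 and 11.33 in the knockout arrays. Arrays of the same genotype were 0.61 and 0.57 apart, several times the difference between group means of 0.10 ± 0.30 (SE, limma adjusted p = 0.957). The 95% interval ran from -0.65 to 0.84, and the sign turned when wild type array 2 (-0.21) or knockout array 2 (-0.19) was left out. The probe annotated to AK033237 gave 123.4 to 180.4 and was at background on all 4 arrays.

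Tyro3 encodes the remaining TAM kinase, best known from the nervous system. Its probe gave 143.7 and 91.0 in the wild type arrays and 98.6 and 84.9 in the knockout arrays, with detection p-values of 0.459 to 0.865. These signals are at the level of background beads, so no change can be given, and a low level of Tyro3 was not detectable on these arrays.

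Gas6 encodes the ligand that binds all TAM kinases. Its signals were 2688 and 1047 in the wild type arrays and 1485 and 1654 in the knockout arrays. Its log2 intensity was 10.86 and 9.85 in the wild type arrays and 10.58 and 11.16 in the knockout arrays. Wild type array 2 was the low array and knockout array 2 the high one, and wild type array 1 lay between the knockout arrays. The wild type arrays differed by 1.01, more than the group means did (log2 change 0.52 ± 0.39, SE, 95% interval -0.45 to 1.48, limma adjusted p = 0.758). Leaving out wild type array 1 gave a change of 1.02, and leaving out wild type array 2 gave 0.01. The change was 0.81 without knockout array 1 and 0.23 without knockout array 2. Gas6 and Axl had the same order of arrays within each genotype, with wild type array 1 over 2 and knockout array 2 over 1. This order was not particular to the pair, and its share over all genes was not counted. Among small peritoneal macrophage and monocyte markers, Cd74, H2-Aa, H2-Ab1 and Folr2 had it too, and Itgax, Fn1 and Irf4 did not.

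Pros1 encodes protein S, also an anticoagulant cofactor of plasma. Its signals were 10240 and 8472 in the wild type arrays and 6566 and 4400 in the knockout arrays. Its log2 intensity was 12.85 and 13.01 in the wild type arrays and 12.79 and 12.58 in the knockout arrays. All knockout values were below all wild type values, but the gap between the groups was 0.06, smaller than the distance between the arrays of either genotype. The log2 change was -0.24 ± 0.19 (SE, 95% interval -0.71 to 0.22, limma adjusted p = 0.762).

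Timd4 had the largest difference among the measured members. Its signals were 1840 and 3423 in the wild type arrays and 721.4 and 741.9 in the knockout arrays. Its log2 intensity was 10.27 and 11.68 in the wild type arrays and 9.44 and 9.92 in the knockout arrays. Both knockout arrays were lower, but the wild type arrays stood 1.41 apart, more than the difference between group means. The mean was 2.45-fold lower in knockout, a log2 change of -1.29 ± 0.47 (SE) with a 95% interval of -2.48 to -0.11, an unadjusted p of 0.037 and a limma adjusted p of 0.508. For comparison, 0.881% of all genes had a lower log2 change. Leaving out wild type array 1 gave -2.0, and leaving out wild type array 2 gave -0.59. When arrays were brought to one common median instead, Timd4 passed (limma adjusted p = 0.0406). That p was computed without subtracting the shift of -0.33 in the median of all genes, and the change relative to that median was -1.31.

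**Figure D2:**
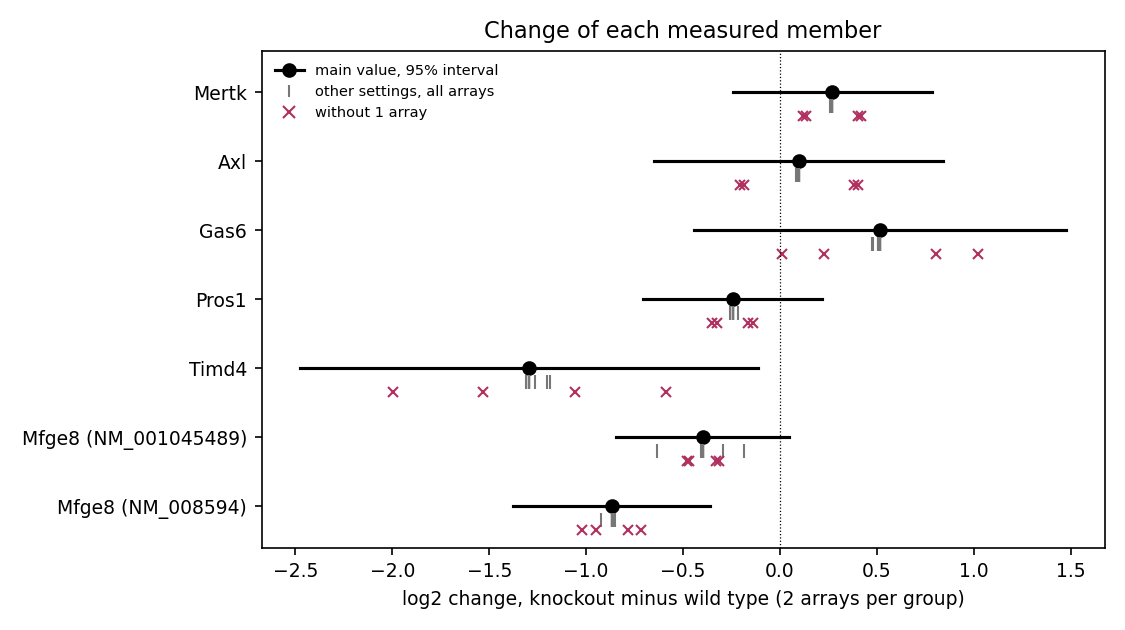
Log2 change, knockout minus wild type (horizontal axis), of the 7 measured member probes. Dots with lines are the main value and its 95% interval, grey ticks are other settings on all arrays (median scaling relative to the median of all genes, and the ticks of Mfge8 NM_001045489 include the mean of both probes), and crosses leave out 1 array. Timd4 spreads from -2.0 to -0.59 over the crosses, and Axl falls on both sides of 0.

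Markers of large peritoneal macrophages, the resident population in which TIM-4 is known to be abundant, were unevenly distributed over the arrays. They shared the highest array with Timd4, but in their median the order of the knockout arrays was reversed. All 8 measured markers, of 10 listed and with Timd4 left out of the list, were highest on wild type array 2, the array where Timd4 was highest, as were 26.6% of all genes. The same array was highest for 13 of 21 measured markers of cell types other than macrophages and monocytes. Of these 13, 12 had a lower mean in knockout, as had 2432 of the 2753 genes highest on that array. Among these, Dcn, a fibroblast matrix gene, was 8.35 and 10.09 in the wild type arrays and 9.19 and 7.64 in the knockout arrays on the log2 scale, and the platelet gene Pf4 was 12.59 and 12.89 in the wild type arrays and 12.37 and 11.90 in the knockout arrays. The summed intensity of the 8 large peritoneal macrophage markers was 21821 and 42576 in the wild type arrays and 22081 and 19060 in the knockout arrays. All 8 had a lower mean in knockout, with a median log2 change of -0.98. A lower mean was found for 48.2% of all genes, and for most genes highest on wild type array 2, as given above. Both knockout arrays were below both wild type arrays for 4 of the 8, against the 19.1% given above for all genes. Gata6, the transcription factor that defines this population, was 9.45 and 10.62 in the wild type arrays and 9.88 and 9.17 in the knockout arrays on the log2 scale, a change of -0.51 ± 0.44 (SE, limma adjusted p = 0.795). F5, which encodes coagulation factor V, had a log2 change of -1.72 ± 0.42 (SE, limma adjusted p = 0.365). Icam2, an adhesion molecule of these cells, had -0.93 ± 0.51 (SE, limma adjusted p = 0.67). None of the 8 passed. The part of these markers, and of those of other cell types, in the difference of Timd4 was not tested, and in bulk samples fewer cells of a type and less RNA per cell cannot be told apart.

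**Figure D3:**
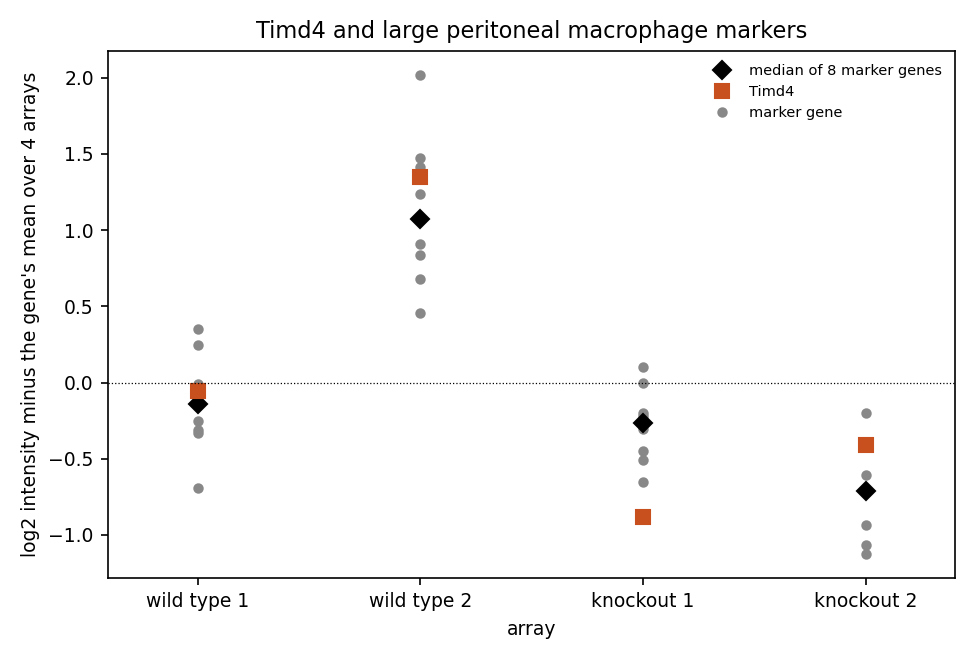
Log2 intensity minus each gene's own mean over the 4 arrays (vertical axis) for Timd4 and 8 markers of large peritoneal macrophages (Tgfb2, F5, Alox15, Selp, Icam2, Garnl3, Gata6 and F10) on each array. Grey dots are markers, black diamonds their median and orange squares Timd4. Timd4 and the marker median stand at 1.35 and 1.07 on wild type array 2 and at -0.88 to -0.06 on the other 3 arrays. On knockout arrays 1 and 2, Timd4 stands at -0.88 and -0.41 and the marker median at -0.26 and -0.71.

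Mfge8 was read by 2 probes, annotated to the transcripts NM_008594 and NM_001045489. The NM_008594 probe gave signals of 34209 and 20901 in the wild type arrays and 10391 and 9528 in the knockout arrays. Its log2 intensity was 14.62 and 14.31 in the wild type arrays and 13.52 and 13.68 in the knockout arrays, with a gap of 0.63 between the groups that exceeded the distance between arrays of either genotype. The mean was 1.83-fold lower in knockout, a log2 change of -0.87 ± 0.21 (SE, 95% interval -1.38 to -0.36, unadjusted p = 0.006, limma adjusted p = 0.317 over all measured probes). It lay between -1.02 and -0.71 when single arrays were left out and did not pass in any other setting that altered its fit. The lowest limma adjusted p was 0.074, with median scaling and computed without subtracting the shift of all genes. With an intensity trend the limma adjusted p was 0.085.

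The NM_001045489 probe, which stood for Mfge8 at gene level because of its higher mean, gave 62728 and 42060 in the wild type arrays and 31052 and 29424 in the knockout arrays. The log2 values were 15.60 and 15.46 in the wild type arrays and 15.05 and 15.21 in the knockout arrays, again without overlap. The change was -0.40 ± 0.18 (SE, 95% interval -0.85 to 0.05, limma adjusted p = 0.581), in the same direction as the other probe and smaller. This probe lay near the top of the scale, which ended at 15.86 on every array after normalization. Its change was -0.18 with median scaling, relative to all genes, and -0.63 for the mean of both probes. The log2 difference between the probes on the same array, NM_008594 minus NM_001045489, was -0.97 and -1.14 for the wild type arrays and -1.53 for each knockout array. This difference was taken after the changes of both probes had been seen and has no test. The exons that each probe reads are not described in the sources used here.

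Mfge8 lies on chromosome 7, as do Axl and Anpep. In the gene order of assembly GRCm38.p6, 12 protein-coding genes separate Mfge8 from Anpep and 589 separate Axl from it. Of the 12, 3 were measured and none passed. Abhd2, next to Mfge8, had a log2 change of -0.18 ± 0.24, Polg, which encodes the mitochondrial DNA polymerase, of -0.19 ± 0.20, and Pex11a, a peroxisomal membrane protein gene, of 0.13 ± 0.18 (SE each). The groups overlapped for all 3. Of the 5 genes on either side outside that interval, 5 were measured and none passed. Beyond Anpep, Ap3s2 (0.19), Zfp710 (0.05) and Idh2 (0.10) overlapped between genotypes, and Sema4b, a semaphorin gene that follows them, had -1.46 ± 0.20 (SE, limma adjusted p = 0.184) without overlap. On the side of Mfge8, Aen was above background on the knockout arrays alone. The origin of the DNA around Anpep in the knockout is not described in the sources used here, and its part in the Mfge8 difference was not tested. Mertk and Tyro3 are on chromosome 2, Gas6 on 8, Timd4 on 11 and Pros1 on 16. Of the genes next to these members and Axl, none that was measured passed. Tmem87b beside Mertk had a log2 change of -0.16 and Rpap1 beside Tyro3 of -0.02. On the other side of Tyro3, Mga had 0.28, above background on 1 array of each genotype. Hnrnpul1 beside Axl had 0.57 ± 0.29 (SE, limma adjusted p = 0.64), above background on 1 of 2 wild type arrays. The genes next to Gas6, Pros1 and Timd4 were not measured.

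**Figure D4:**
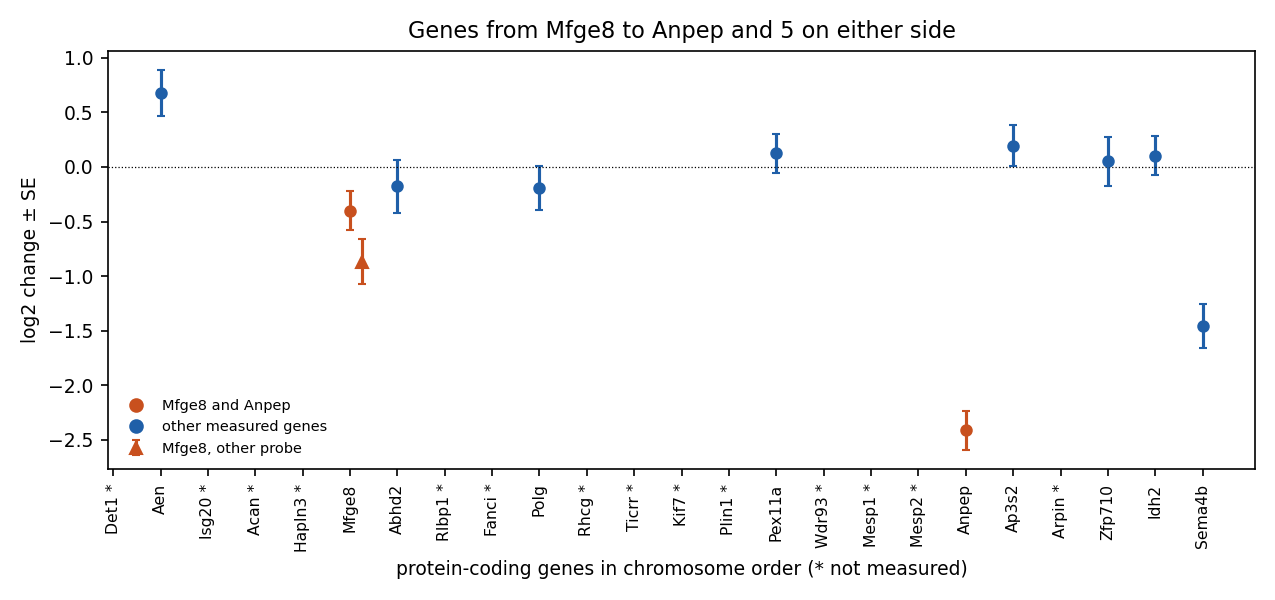
Log2 change ± SE, knockout minus wild type (vertical axis), of protein-coding genes in chromosome order from 5 before Mfge8 to 5 after Anpep. Stars mark genes not measured, orange marks Mfge8 (the triangle is the NM_008594 probe) and Anpep, blue the other genes. Aen was not above background on the wild type arrays, so the size of its change is not known. The 3 measured genes between them lie between -0.19 and 0.13, above both Mfge8 probes.

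The promoters of the members without overlap that differed most, Timd4 and Mfge8, are shown beside that of Mertk, whose groups overlapped. Each is the 250 bases before the RefSeq gene start in GRCm38.p6, read 5′ to 3′ on the gene's strand. The positions are chr11:46810549-46810798 on the plus strand for Timd4, chr7:79149061-79149310 on the minus strand for Mfge8 and chr2:128698665-128698914 on the plus strand for Mertk. Capitals mark, on either strand, GATAA (the core of GATA sites), GAGGAAG (a core of PU.1 sites), AGGTCA (the recognition hexamer of nuclear receptors), GGGCGG (the GC box) and TATAA (the TATA box core).
Timd4: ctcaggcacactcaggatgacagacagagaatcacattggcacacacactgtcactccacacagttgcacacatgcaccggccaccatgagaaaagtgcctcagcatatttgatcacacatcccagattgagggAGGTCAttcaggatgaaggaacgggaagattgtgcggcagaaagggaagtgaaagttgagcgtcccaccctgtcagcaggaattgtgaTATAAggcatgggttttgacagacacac
Mfge8: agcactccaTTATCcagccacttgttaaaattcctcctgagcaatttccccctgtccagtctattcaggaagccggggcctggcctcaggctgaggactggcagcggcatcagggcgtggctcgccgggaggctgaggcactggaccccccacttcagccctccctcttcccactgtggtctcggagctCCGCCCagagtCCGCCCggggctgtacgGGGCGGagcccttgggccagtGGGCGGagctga
Mertk: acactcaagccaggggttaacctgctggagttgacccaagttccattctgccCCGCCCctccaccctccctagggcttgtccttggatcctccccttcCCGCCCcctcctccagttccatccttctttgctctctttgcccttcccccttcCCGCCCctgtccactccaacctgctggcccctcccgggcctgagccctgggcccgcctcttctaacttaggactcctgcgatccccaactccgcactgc

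Timd4 was the member without a GC box in this window and the one with TATAA, which starts 28 bases before the gene start. It also held AGGTCA once, starting 116 bases before the start, and its GC content was 50%. The window of Mfge8 held GGGCGG 4 times, all within 61 bases of the start, and GATAA once, at 241 bases, with a GC content of 65.2%. That of Mertk held GGGCGG 3 times and had a GC content of 63.6%. All 7 members had a window in the RefSeq table, and GGGCGG occurred in 6 of them. Over all 32851 windows, GGGCGG occurred in 32.7%, TATAA in 22.8%, GATAA in 22.6%, AGGTCA in 14% and GAGGAAG in 10.6%. Letters of a motif are no evidence of binding in these cells.

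Other genes of the pathway were described by 7 lists, from receptors to the machinery of uptake, and none of their measured genes passed in either direction (0 higher and 0 lower in each list). Of 20 other receptors for dying cells, 13 were measured, 6 with a lower and 7 with a higher mean, and a median log2 change of 0.06. Cd300lf, a receptor of the CD300 family that binds phosphatidylserine, was 9.38 and 9.24 in the wild type arrays and 9.72 and 9.94 in the knockout arrays on the log2 scale. Its change was 0.52 ± 0.19 (SE, limma adjusted p = 0.503). Stab2, a scavenger receptor that also binds the lipid, had 0.57 ± 0.30 (SE, limma adjusted p = 0.642), but was above background on 1 of 2 wild type arrays and both knockout arrays. Itgav and Itgb5, the chains of an integrin that binds lactadherin, had -0.02 and 0.31.

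Of 12 other soluble bridges and opsonins, 8 were measured with a median log2 change of 0.09. The complement genes C1qa, C1qb and C1qc, whose products coat dying cells, had log2 changes of 0.04, -0.17 and -0.11. Anxa1 and Anxa5, which encode lipid binding annexins, had 0.37 ± 0.24 and 0.26 ± 0.19 (SE). Among genes of ligand carboxylation and receptor shedding, 6 of 7 were measured. Vkorc1l1, whose product recycles vitamin K, had 0.42 ± 0.18 (SE, limma adjusted p = 0.565), and Rhbdf2 had -0.33 ± 0.22 (SE, limma adjusted p = 0.728). Ggcx, the carboxylase that modifies Gas6 and protein S, had -0.18, and Adam17, a protease that sheds Mertk, had 0.05.

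Downstream of the receptors, 15 of 17 genes of engulfment and phagosome formation were measured, with a median log2 change of 0.07. Elmo2, an adaptor that activates Rac with Dock proteins, was 8.73 and 9.09 in the wild type arrays and 8.12 and 8.34 in the knockout arrays, a change of -0.68 ± 0.21 (SE, limma adjusted p = 0.426). Its relative Elmo1 had 0.13, and Dock1, a partner of both, had -0.67 ± 0.43 (SE, limma adjusted p = 0.711). Socs3, a cytokine signalling inhibitor that TAM receptors are known to induce, was 11.96 and 12.40 in the wild type arrays and 11.54 and 11.27 in the knockout arrays. Its change was -0.77 ± 0.23 (SE, limma adjusted p = 0.411), and Src, a kinase acting after Mertk and likewise above background on 1 of 2 wild type arrays and both knockout arrays, had 0.69 ± 0.49 (SE). The list of TAM signalling partners, 6 of 11 measured, had a median of 0.04.

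Of 11 nuclear receptor and sterol efflux genes, which handle the lipid of engulfed cells and include regulators of Mertk, 8 were measured, 6 with a higher mean. Their median log2 change of 0.25 was the highest of the 7 lists. Rxra, the partner of many nuclear receptors, had 0.45 ± 0.17 (SE, limma adjusted p = 0.513), the exporter Abcg1 had 0.59 ± 0.31 (SE, limma adjusted p = 0.642) and Nr1h3, which encodes LXR alpha, had 0.21. Of 9 genes of lipid scrambling and the CD47 axis, 7 were measured, with a median of -0.18. Xkr8, a scramblase that exposes phosphatidylserine, had 0.50 ± 0.25 (SE, limma adjusted p = 0.621), Atp8a1, a flippase that returns lipid to the inner leaflet, had -0.36 ± 0.18 (SE, limma adjusted p = 0.633), and Cd47 and Sirpa, a ligand and receptor that restrain uptake, had -0.13 and -0.20.

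**Figure D5:**
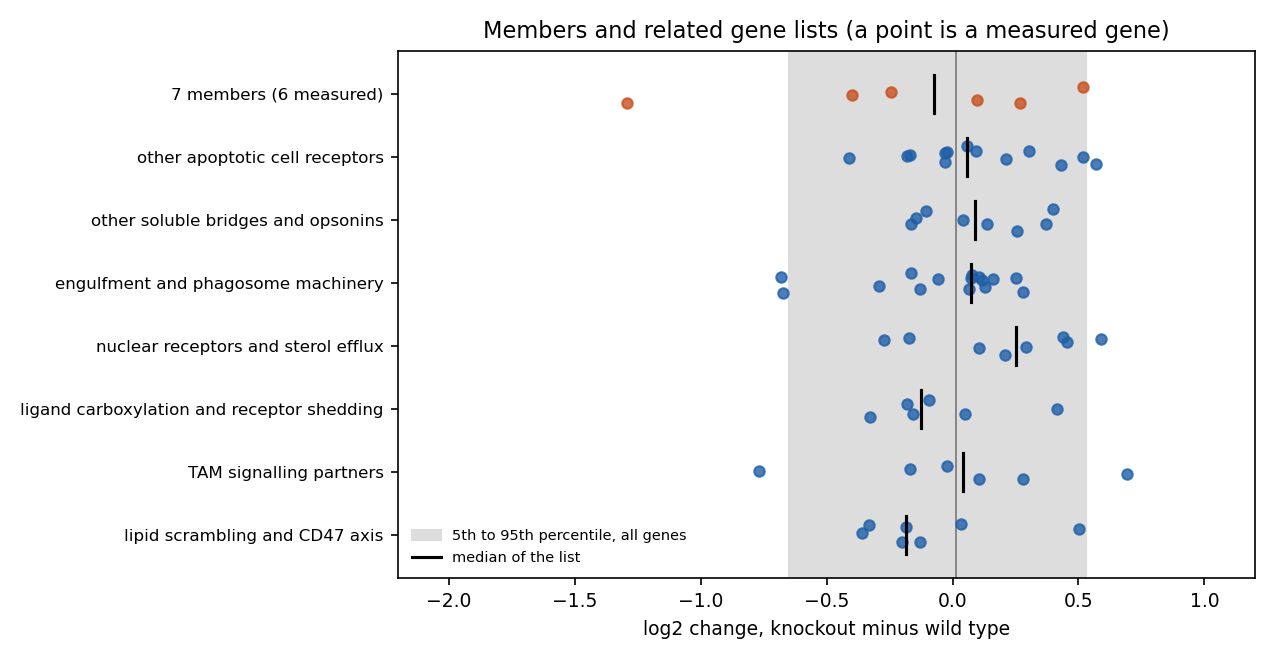
Log2 change, knockout minus wild type (horizontal axis), of the 6 measured members and of the measured genes of 7 related lists. A point is a gene, a black bar the median of its list, and the grey band spans the 5th to 95th percentile of all genes (-0.65 to 0.53). With 1 probe standing for each gene, Timd4 is the member outside the band. The Mfge8 NM_008594 probe, not shown here, had -0.87 and would also lie outside it.

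The 2 named genes nearest to each member in profile were found by the root mean square difference of log2 values, centred on each gene's mean, over 4 arrays. Trem1, a receptor that amplifies inflammatory signals in myeloid cells, was nearest to Timd4 with 0.09, the only one of 8237 genes within 0.1, and Gpr171 followed with 0.12. Trem1 was 7.05 and 8.23 in the wild type arrays, and its 6.13 and 6.55 in the knockout arrays were not above background. Nearest to Mfge8 were Zmynd8 and Dnajc25 (0.01 each), with 155 genes within 0.1. Nearest to Mertk were Dus3l (0.01) and Sptlc2 (0.02), with 297 within 0.1, and to Pros1 the mitochondrial ND4 (0.01) and Yipf4 (0.02), with 522 within 0.1. Axl was nearest to Rarg and Tap1 (0.02 each), with 43 within 0.1. Gas6 was nearest to Atn1 and Wdr6 (0.06 each, Wdr6 above background on 1 of 2 wild type arrays), with 8 within 0.1. The limit of 0.1 is harder to meet for a member that varies widely over the arrays, such as Timd4. These counts therefore cannot be compared between members.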

How the data were processed

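Illumina MouseWG-6 v2.0 BeadChips were read in GenomeStudio, per the submitters' processing notes; its version and any background subtraction are not given in the sources used here. The deposited table holds bead intensity per probe on a linear scale, not normalized between arrays, with a detection p-value deposited beside each. A further deposited table holds intensities quantile normalized by the authors, per the series design text.

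Signals were background corrected by normexp using the detection p-values (offset 16), quantile normalized and put on the log2 scale with neqc (limma 3.58.1, R 4.3.3). Probes detected at p under 0.01 on at least 2 arrays were kept (14881 of 45281). Of all probes, 34885 had 1 gene symbol, 18 several and 10378 none, and 34807 were updated through GRCm38.p6 gene IDs. The probe with the highest mean stood for its gene, which gave 10335 genes and unnamed probes. Knockout was compared with wild type across all of them by lmFit and eBayes with Benjamini-Hochberg adjustment. The code was tested on simulated data.

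Members and lists were chosen with earlier results of these data known. Named genes are the members, Anpep, genes of each list that passed or else the 2 with the smallest p, nearest profiles and gene neighbours. Further list members, the cell type markers, Sema4b and Aen were named after their values were seen. Precision is limited by the number of arrays.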

Additional observations from a re-analysis of the deposited data

How the results depend on the processing

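The 16 alternatives to the processing covered background correction, scaling, the authors' values, filters, probe summary, variance model, pairing and single arrays. Genes passing, 10 in all, became 17 without background correction, 209 with median scaling, 5 with no filter on dim probes (more genes tested), 4 for probes detected on all 4 arrays, 16 with an intensity trend, and 4 to 11 when single arrays were left out. For other shifts the cause was not tested. Member genes passing numbered 0 in 15 of the alternatives and 1 with median scaling (Timd4, without subtracting the shift of all genes), and member probes passing numbered 0 in all 16, of which 2 change only how probes of a gene are combined and leave the test of each probe as it is. Mertk and Gas6 kept a higher mean and Pros1, Timd4 and both Mfge8 probes a lower mean in all 16, taken relative to all genes under median scaling. Single-array omissions moved Axl between -0.21 (wild type array 2 omitted) and 0.40, with -0.19 when knockout array 2 was omitted. These fits have fewer samples and take the spread of the remaining single array from the other group.

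The labels do not say whether same-numbered arrays were paired. The correlation across genes of array 1 minus array 2 between the genotypes was -0.02. A value over all genes cannot tell whether a pairing moved some of them. With the replicate block, 13 genes and 0 members passed. The Timd4 change of -1.29 then had a limma adjusted p of 0.23.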
